A study of Mus musculus with 3 samples.

Results

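The 40 genes described here encode the machinery of mitosis: cyclins and Cdk1, the Aurora and Polo kinases, kinetochore and spindle proteins, the spindle checkpoint, the anaphase-promoting complex and its substrates, the cytokinesis proteins and the condensins. They were taken by name from a list of symbols, a rule that uses no measured value. The list itself was chosen with earlier results of these data known. All 40 were rows of every library, out of 46675 symbols found in at least 1 library. Their unique molecular identifier (UMI) counts were read in single cells of the mouse hindstomach, the glandular part of the stomach, at embryonic day 18.5. All 3 libraries carried Shh-Cre, a recombinase driven from the Shh locus, which is active in the gut epithelium: the control carried Shh-Cre alone, the YAP5SA library Shh-Cre;YAP5SA, and the Yap knockout library Shh-Cre;YaploxP/loxP. YAP5SA is a form of the Hippo pathway coactivator YAP that lacks inhibitory phosphorylation sites and stays active. The promoter of the YAP5SA allele, the number of embryos pooled and their sex are not given in the sources used here. The question addressed is how mitosis gene expression differs between states of YAP activity in the epithelium, with the other cells of the same libraries as a reference.

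Cells enter mitosis when Cdk1, bound to A and B cyclins, is switched on by Cdc25 phosphatases. Aurora and Polo kinases then build the spindle, kinetochores attach chromosomes to it, and the checkpoint holds back the anaphase-promoting complex until every chromosome is attached, after which securin and the cyclins are destroyed and the cell divides. Most of these genes are transcribed together late in the cell cycle, through a promoter element called the cell cycle genes homology region (CHR), which is bound by the DREAM and MMB complexes, often beside CCAAT boxes bound by NF-Y. In the late fetal stomach, dividing epithelial cells lie in the forming glands, while surface mucous cells have largely stopped dividing.

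Each genotype was 1 library, so no difference below has a replicate check, no p-value is given, and every interval is a 95% interval of counting error only (exact Poisson for ratios of levels, exact Clopper-Pearson for shares). After filtering, 6959 control, 8518 YAP5SA and 4890 Yap knockout cells were kept, with median depths of 4900, 5224.5 and 4979.5 UMIs. Cells were gated into classes by marker genes. The epithelial-like class held 637, 1595 and 831 cells in the same order, with median depths of 3442, 7097 and 4103 UMIs, and 966, 1353 and 769 cells stayed ungated. All 10 epithelial gate markers were detected in that class in every library, and Epcam stood at 250, 396 and 291 CPM (UMI counts scaled to a common total for each class and library) there against 7.06, 26.3 and 12.3 CPM in the gated non-epithelial cells. The summed level of 8 fibroblast markers in the epithelial-like cells was 7668, 3099 and 1008 CPM, and that of 8 mesothelial markers was 2027, 7531 and 1644 CPM, with none of either list at 0. Yap1, the targeted gene, stood at 49.0 CPM in control, 54.8 in YAP5SA and 22.5 in knockout epithelial-like cells. In non-epithelial cells its level was 53.0, 50.9 and 48.7 CPM. Cell names in the deposited matrices are serial numbers, and 2409, 1388 and 1528 of them recur between control and YAP5SA, control and knockout, and YAP5SA and knockout, so sharing of cells cannot be read from them.

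Promoter sequences are shown for the 4 members with the highest YAP5SA to control ratio whose first listed window holds the CHR wholly before the start, and for the highest 2 that lack it throughout. RefSeq promoters of build GRCm38.p6, from 250 bases before to 50 bases after the start, were given for 34 of the 40 members. The motifs searched, on both strands, were TTTGAA or TTTAAA for the CHR and CCAAT. Each line gives the 120 bases before the start, 5′ to 3′ on the strand of the gene, with CHR and CCAAT letters of either strand in capitals. Cdk1, the mitotic kinase, lies at chr10:69352913-69353032 on the minus strand, Ccnb1 (cyclin B1) at chr13:100786487-100786606 on the minus strand, Ube2c (ubiquitin-conjugating enzyme of the anaphase-promoting complex) at chr2:164769809-164769928 on the plus strand, and Ect2 (activator of RhoA at the cleavage furrow) at chr3:27153879-27153998 on the minus strand. Nuf2 (a kinetochore subunit) at chr1:169531465-169531584 on the minus strand and Nusap1 (a spindle microtubule binder) at chr2:119618178-119618297 on the plus strand have no CHR in the window.
Cdk1: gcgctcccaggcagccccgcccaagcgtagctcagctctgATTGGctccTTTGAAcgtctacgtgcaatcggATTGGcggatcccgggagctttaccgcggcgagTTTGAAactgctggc
Ccnb1: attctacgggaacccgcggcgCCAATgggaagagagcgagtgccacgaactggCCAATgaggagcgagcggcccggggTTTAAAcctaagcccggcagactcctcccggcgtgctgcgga
Ube2c: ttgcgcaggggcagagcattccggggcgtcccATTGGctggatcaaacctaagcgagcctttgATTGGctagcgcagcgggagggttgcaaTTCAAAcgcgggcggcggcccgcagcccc
Ect2: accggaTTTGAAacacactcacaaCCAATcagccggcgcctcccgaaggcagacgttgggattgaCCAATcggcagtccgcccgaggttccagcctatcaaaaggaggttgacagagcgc
Nuf2: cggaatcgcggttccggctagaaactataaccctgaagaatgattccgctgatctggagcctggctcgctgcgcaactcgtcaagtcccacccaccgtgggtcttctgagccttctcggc
Nusap1: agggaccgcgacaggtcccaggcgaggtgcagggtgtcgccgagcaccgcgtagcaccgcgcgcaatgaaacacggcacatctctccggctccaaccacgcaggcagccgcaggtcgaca
The CHR letters began 71 and 15 bases before the start in Cdk1, 42 bases before it in Ccnb1, 29 in Ube2c and 114 in Ect2, and each of these promoters also held 2 CCAAT matches. Across the whole window, 29 of the 34 members (85.3%) held the CHR letters, against 8261 of 27025 genes (30.6%) in the same table. CCAAT was present in 26 of the 34 (76.5%) against 41.1% of all genes, and both motifs in 24 (70.6%) against 13.4%. Between 100 bases before and 50 after the start, the CHR was found in 27 of 34 (79.4%) against 14.7% of all genes. The GGAATG letters of a TEAD site, a motif added after the values were known, were found in 3 of the 34 windows (8.82%) against 16.6% of all genes. Of the members called higher in YAP5SA (1.5-fold or more), 17 of 19 held the CHR, and of the other members 12 of 15. A match describes letters, and no match says only that they are not in this window.

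In epithelial-like cells the mitosis genes were higher in the YAP5SA library and, for part of the list, lower in the Yap knockout library. Their UMIs summed to 939 CPM in control, 1635 in YAP5SA and 780 in knockout cells. The YAP5SA sum was thus 1.74-fold that of the control (1.68 to 1.80) and the knockout sum 0.830-fold (0.796 to 0.866). These sums pool finer cell types whose mix differed: pit-like cells were 140 of 637 control and 20 of 1595 YAP5SA cells. Finer types also differed in direction. From control to knockout the sum was 1271 and 962 CPM in neck and chief-like cells, and 584 and 710 CPM in pit-like cells. In enteric neuron-like cells, which have left the cell cycle, the members summed to 488, 435 and 290 CPM, a YAP5SA ratio of 0.890 (0.785 to 1.01) and a knockout ratio of 0.594 (0.544 to 0.649). The knockout sum was thus lower in that class too, and by more than in epithelial-like cells; among its members Cdc20 had a ratio of 0.313 (0.185 to 0.530) on 31 control and 32 knockout UMIs. The part of this neuron-like difference in the epithelial knockout values was not tested. A gene was called when its CPM ratio was at least 1.5 or at most the inverse of 1.5, among genes with a mean of at least 5 CPM over the libraries, which 37 of the 40 members reached. In YAP5SA, 24 members were called higher and 0 lower, where 23.2% of the 12081 genes tested were called higher and 18.9% lower. Of the members called higher, Nuf2 reached the filter only through its YAP5SA level. The ratio was above 1 for 39 of the 40, and the median log2 ratio was 0.77 for the members against 0.08 for all genes tested. In the knockout, 1 member was called higher and 11 lower, where 12.2% of all genes were called higher and 11.9% lower, and the medians were -0.26 and 0.04. Both comparisons use the same control library, whose epithelial-like cells were the fewest and the shallowest. Fibroblast marker levels were highest in that control class and mesothelial ones in YAP5SA. A non-epithelial profile scaled to collagen genes was therefore subtracted (41.8%, 28.2% and 25.2% of the control, YAP5SA and knockout UMIs). The summed YAP5SA ratio was then 2.77, and 8 members were called higher in the knockout. The share of all genes called was not computed after subtraction, so this count has no background. All 36 member ratios called before subtraction, 11 of them lower in the knockout, stayed past the fold in the same direction. The part of the mesothelial markers was not tested. Their list includes the keratin gene Krt19, and whether epithelial cells themselves expressed these markers was not tested either. In each library, fewer dividing cells and less RNA in each cannot be told apart from these sums alone.

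**Figure D1:**
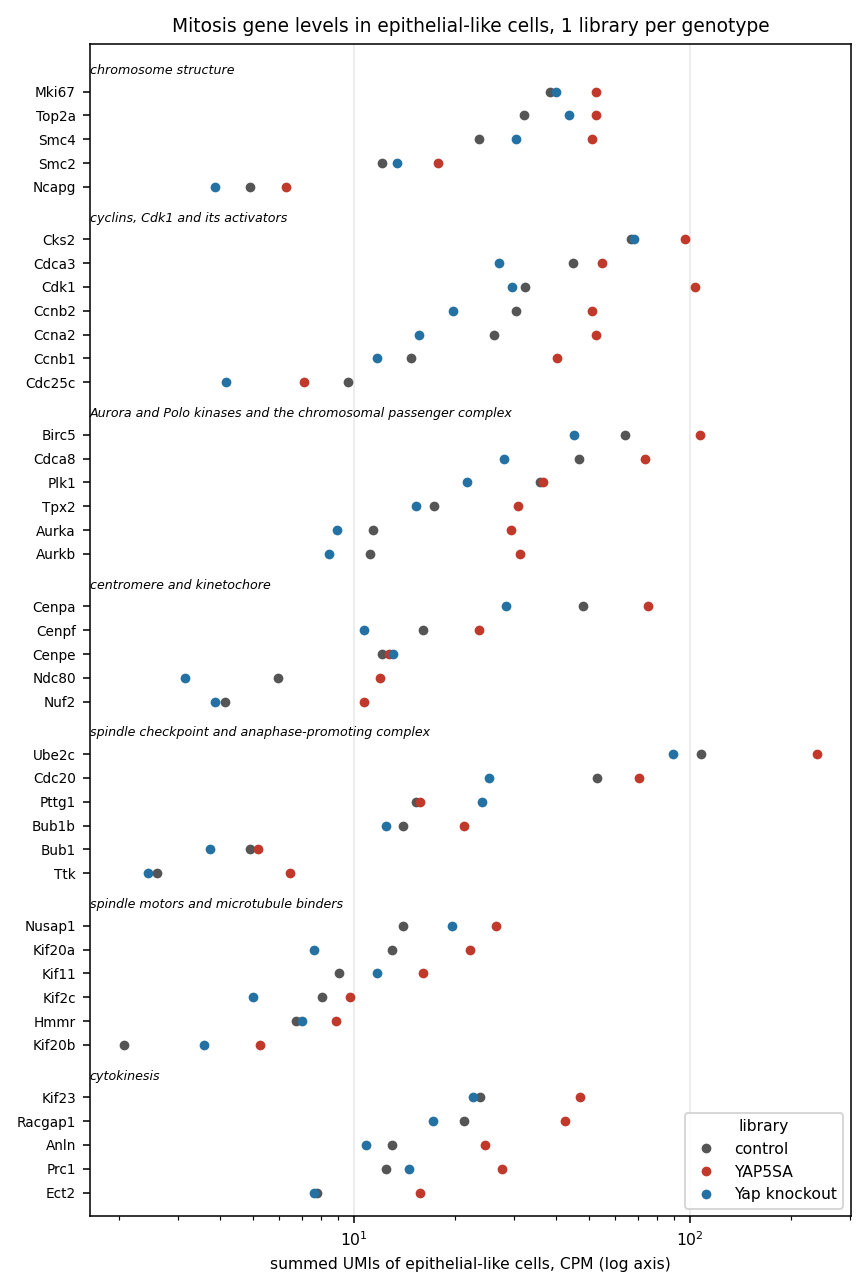
Level of each mitosis gene in epithelial-like cells, as CPM of the summed UMIs on a log axis, with 1 point per library and the genes grouped by role. The YAP5SA point lies furthest right for most genes, with Ube2c highest at 239 CPM, while Cdc25c, Pttg1 and Cenpe are exceptions.

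Among the cyclins, Cdk1 and its activators, Cdk1 itself had the highest YAP5SA ratio of all members. Its level was 32.4 CPM in control cells, 104 CPM in YAP5SA cells and 29.5 CPM in knockout cells (125, 1753 and 206 UMIs), a YAP5SA ratio of 3.20 (2.67 to 3.87) and a knockout ratio of 0.912 (0.727 to 1.15). The YAP5SA level thus stands apart, and the other libraries differ by less than the counting error. Ccnb1, the cyclin partner of Cdk1 at mitotic entry, stood at 14.8, 40.3 and 11.8 CPM, a YAP5SA ratio of 2.73 (2.08 to 3.64). Ccna2 (cyclin A2, active from S phase into early mitosis) stood at 26.2, 52.7 and 15.6 CPM, 2.01-fold (1.64 to 2.50) in YAP5SA and 0.597-fold (0.451 to 0.791) in the knockout, so that the libraries order as knockout, control, YAP5SA. Ccnb2 had the same order, at 30.3, 51.2 and 19.8 CPM. The phosphatase Cdc25c, which removes the inhibitory phosphates from Cdk1, had its highest level in the control, with 9.59 CPM in control, 7.09 in YAP5SA and 4.16 in knockout cells. Its YAP5SA ratio of 0.740 (0.508 to 1.101) did not differ from 1 beyond counting error, and its knockout ratio of 0.434 (0.257 to 0.725) was the lowest of the 40. The last members were the Cdk1-binding subunit Cks2, at 67.1, 96.6 and 68.3 CPM, and Cdca3, a trigger of Wee1 destruction, at 45.1, 55.0 and 27.1 CPM.

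Of the chromosome structure genes, Smc4, the condensin ATPase subunit, was 2.17-fold (1.75 to 2.73) as high in YAP5SA as in the control, at 23.6, 51.2 and 30.4 CPM in control, YAP5SA and knockout. Top2a, the topoisomerase that untangles sister chromatids, stood at 32.1, 52.8 and 43.7 CPM, with ratios of 1.64 and 1.36, both above 1 beyond counting error. Mki67, the perichromosomal protein widely used as a proliferation marker, had smaller differences: 38.3, 52.8 and 40.0 CPM, with ratios of 1.38 (1.16 to 1.65) and 1.04 (0.852 to 1.28). Smc2 and Ncapg, the other condensin members, had YAP5SA ratios of 1.47 and 1.27. Of the 7 roles, this was the 1 whose summed level was above control in the knockout beyond counting error, at 132 against 111 CPM (ratio 1.18, 1.05 to 1.33).

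Within the Aurora and Polo kinase group, both Aurora kinases were among the highest ratios in YAP5SA while Plk1 was level with the control. Aurkb, the catalytic subunit of the chromosomal passenger complex, stood at 11.1, 31.2 and 8.46 CPM, a YAP5SA ratio of 2.80 (2.05 to 3.92). Aurka, which acts at spindle poles, stood at 11.4, 29.3 and 8.89 CPM, and its activator Tpx2 at 17.4, 30.8 and 15.3 CPM. Plk1, the Polo kinase needed for mitotic entry, spindle assembly and cytokinesis, had 35.8 CPM in control and 36.6 in YAP5SA cells (ratio 1.02, 0.850 to 1.24), against 21.8 in knockout cells (0.610, 0.481 to 0.773). The passenger subunits Birc5 (survivin, 64.0, 107 and 45.2 CPM) and Cdca8 (borealin, 46.9, 73.6 and 28.0 CPM) were intermediate, with the control between the other libraries. All 6 genes of this role had a knockout ratio under 1, from 0.596 to 0.884, and their sum was 0.684-fold that of the control (0.619 to 0.756).

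Of the centromere and kinetochore genes, Nuf2 and Ndc80, subunits of the complex that binds microtubules, were 2.58-fold (1.55 to 4.61) and 2.01-fold (1.30 to 3.25) as high in YAP5SA. They rest on few counts: 16 and 23 UMIs in the control, and 181 and 203 in YAP5SA. Nuf2 reached the filter of 5 CPM only through its YAP5SA level. Cenpa, the centromeric histone, stood at 48.2, 75.2 and 28.4 CPM, with ratios of 1.56 (1.34 to 1.83) and 0.589 (0.480 to 0.724). Cenpe, a kinetochore motor, did not differ beyond counting error in either comparison, at 12.2, 12.8 and 13.1 CPM. Cenpf, a large kinetochore and nuclear matrix protein, stood at 16.1, 23.5 and 10.8 CPM.

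The spindle checkpoint and anaphase-promoting complex group held the most abundant member. Ube2c reached 108 CPM in control, 239 in YAP5SA and 89.4 in knockout cells (418, 4040 and 623 UMIs), with ratios of 2.20 (1.99 to 2.44) and 0.825 (0.728 to 0.936). Cdc20, the activator that opens anaphase, stood at 53.1, 70.6 and 25.2 CPM, so that the knockout level was 0.475-fold (0.386 to 0.584) that of the control. Pttg1, securin, which keeps sister chromatids joined until anaphase, was the 1 member called higher in the knockout: it stood at 15.3, 15.7 and 24.1 CPM, with ratios of 1.03 (0.773 to 1.39) and 1.58 (1.17 to 2.16). The checkpoint kinases Bub1 and Ttk had 19 and 10 control UMIs and stayed under the filter of 5 CPM. Bub1b, the checkpoint pseudokinase, had a YAP5SA ratio of 1.52 (1.14 to 2.06).

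Spindle motors and microtubule binders were called higher in YAP5SA for 3 of 6 members: Nusap1 at 1.90 (1.43 to 2.57), the bipolar spindle motor Kif11 at 1.77 (1.24 to 2.60) and the midzone motor Kif20a at 1.71 (1.27 to 2.35). Hmmr, a spindle assembly factor, had a ratio of 1.32 (0.864 to 2.08), and Kif20b a ratio of 2.54 on 8 control UMIs, under the filter. In the knockout this role had members on both sides, with Kif20a at 0.587 (0.391 to 0.881) and Kif2c at 0.625 (0.374 to 1.05), against Nusap1 at 1.40 (1.02 to 1.96). The cytokinesis genes had the narrowest range of YAP5SA ratios of the 7 roles. All 5 were called higher in YAP5SA, between 1.90 and 2.23: the anillin gene Anln, the centralspindlin pair Kif23 and Racgap1, the midzone bundler Prc1, and Ect2. Their sum was 78.2, 158 and 73.0 CPM in control, YAP5SA and knockout, and 0 of the 5 were called in the knockout.

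**Figure D2:**
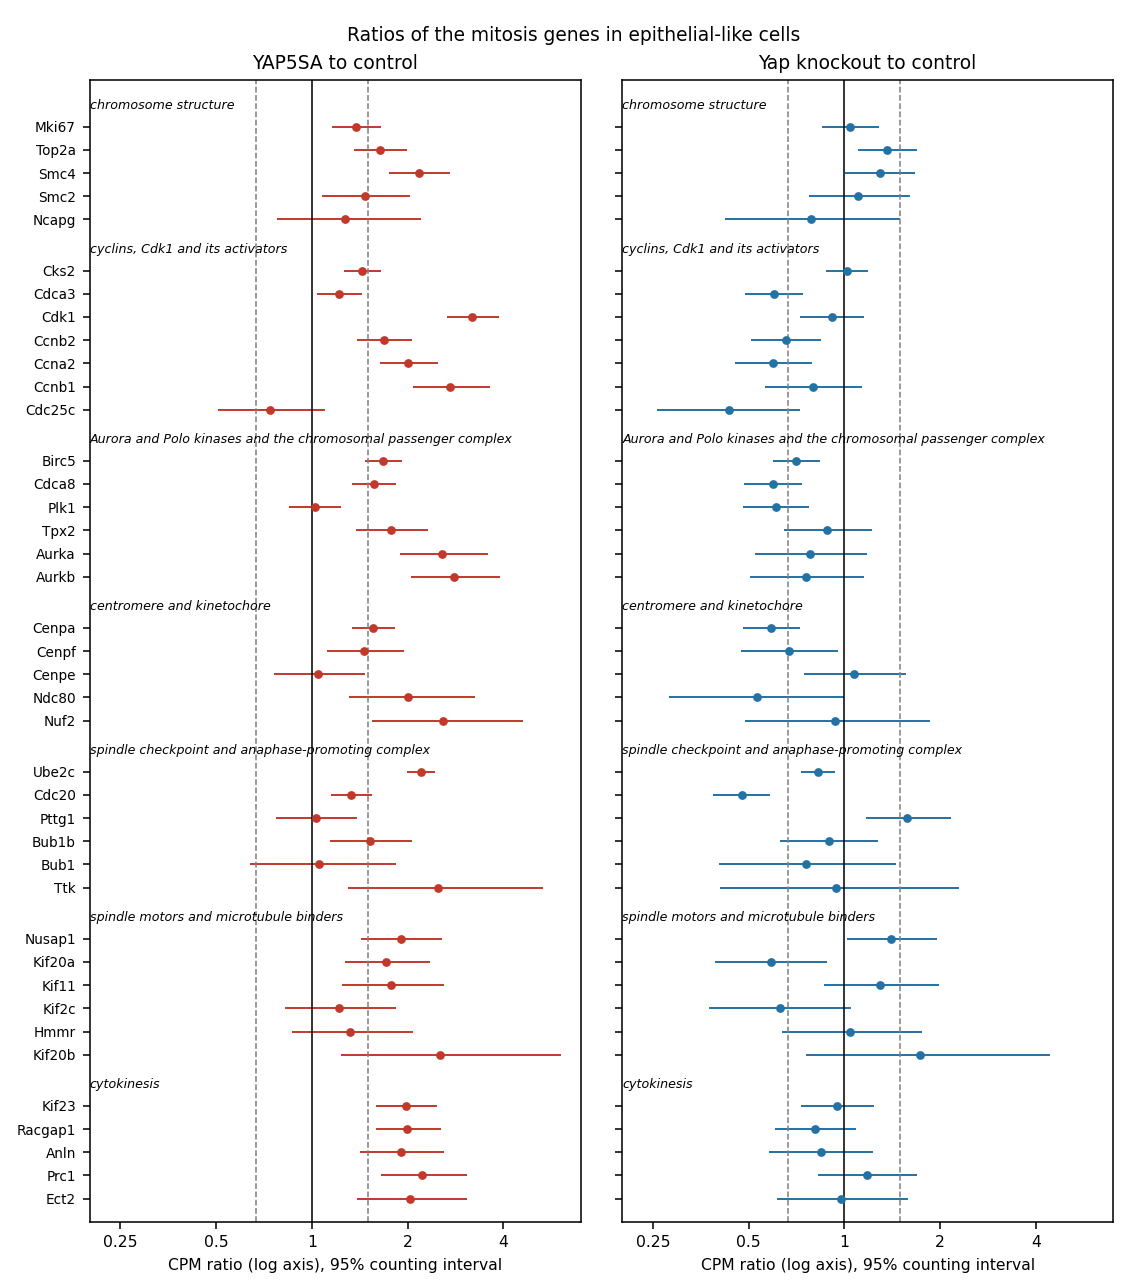
CPM ratio of each mitosis gene to control in epithelial-like cells on log axes, with 95% counting intervals, for YAP5SA at left and the Yap knockout at right; dashed lines mark the 1.5-fold call in each direction. The 5 cytokinesis genes lie between 1.90 and 2.23 in YAP5SA, and the 6 Aurora and Polo genes all lie under 1 in the knockout.

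The makeup of the mitosis transcripts therefore differed between libraries as well as their sum. Cdk1 made up 3.45% of the member UMIs of control epithelial-like cells (2.88 to 4.10), 6.34% of those of YAP5SA (6.05 to 6.63) and 3.79% of those of the knockout (3.30 to 4.33). Plk1 made up 3.81%, 2.24% and 2.80%, and Cdc20 5.66%, 4.32% and 3.24%. Pttg1 made up 1.63%, 0.962% and 3.09%.

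A cell was counted as carrying the mitosis programme when at least 4 of the 40 genes had a UMI. To compare cells of unequal depth, each was thinned to 2000 UMIs and shallower cells were left out. In epithelial-like cells the share was 11.2% in the control (49 of 437 cells, 8.41 to 14.6), 21.2% in YAP5SA (296 of 1398, 19.1 to 23.4) and 7.92% in the knockout (50 of 631, 5.94 to 10.3). The YAP5SA interval lies above the others, while those of control and knockout overlap. Thinning left out 200, 197 and 200 shallower cells, and unthinned shares were 29.2%, 55.2% and 30.6%. Enteric neuron-like cells gave 2.21% (3 of 136), 2.30% (2 of 87) and 1.52% (7 of 460) after thinning, at median depths of 7144, 7302.5 and 7022 UMIs, and 29.3%, 40.4% and 25.3% unthinned. The unthinned share thus reached 25.3% or more in a class that does not divide. Detection of any 1 member separated the classes less: 68.0%, 69.0% and 60.2% of thinned epithelial-like cells had at least 1 member, against 55.1%, 64.4% and 44.8% of the neuron-like cells. Ube2c alone was detected in 13.0%, 20.0% and 12.8% of thinned epithelial-like cells, against 4.41%, 10.3% and 5.22% of neuron-like cells.

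**Figure D3:**
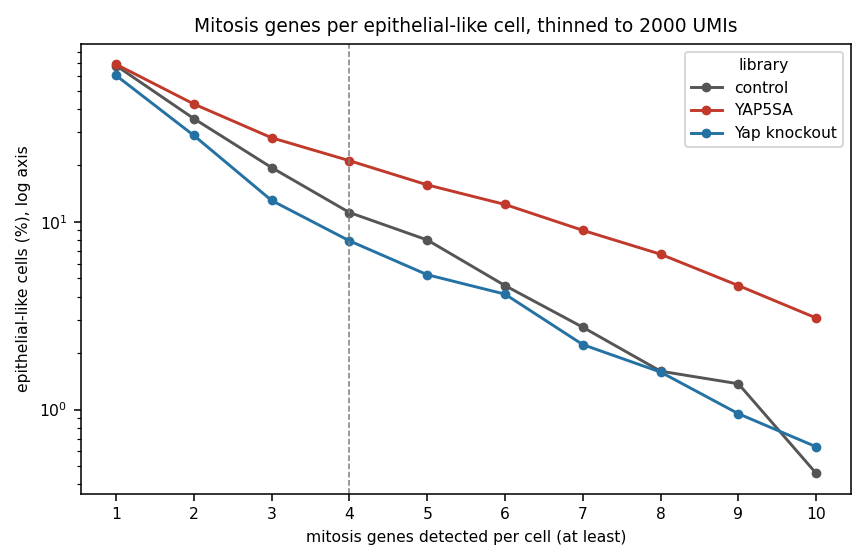
Percent of epithelial-like cells (log axis) with at least the number of mitosis genes on the horizontal axis, after thinning each cell to 2000 UMIs, by library; the dashed line marks 4 genes. The curves start close together, at 60.2% to 69.0% for 1 gene, and move apart to the right, with 3.08% of YAP5SA cells at 10 or more against 0.458% and 0.634% in control and knockout.

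The level inside cells taken as dividing was read with genes that did not choose the cells. The list was split into odd and even positions, thinned cells with at least 3 of the 20 odd or even genes were taken as dividing, and the other 20 genes were summed in them. Chosen by the odd genes, 8.01% of control (35 cells), 16.7% of YAP5SA (233) and 6.02% of knockout (38) epithelial-like cells were so taken. In these cells the even genes summed to 1271 CPM in control (1021 to 1565), 1665 in YAP5SA (1550 to 1787) and 1158 in knockout cells (929 to 1427). Chosen by the even genes, the shares were 5.72%, 12.4% and 4.12%, and the odd genes summed to 1880 (1519 to 2301), 2627 (2459 to 2804) and 2038 (1669 to 2465) CPM. In YAP5SA both the share and the level per chosen cell were above the control in both splits. The intervals of the level overlapped for the odd choice. Unchosen cells still held 285, 314 and 228 CPM of the even genes and 428, 511 and 346 CPM of the odd genes in control, YAP5SA and knockout. A cut of 3 genes can thus also pass cells that are not dividing. Such cells weigh more where fewer cells divide, so the level per chosen cell is not separated from the share. For the knockout neither level differed from the control beyond counting error. Non-epithelial cells chosen in the same way held more: 2472, 1946 and 3029 CPM of the even genes and 4057, 3283 and 3746 CPM of the odd genes in control, YAP5SA and knockout.

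Epithelial-like cells with at least 4 members differed from the others in genes outside the list too. With the cells split at 4 members after thinning, 31 DNA replication genes summed to 1010 against 536 CPM in the control, 1674 against 936 in YAP5SA and 790 against 411 in the knockout, the cells with at least 4 members first. The cells under 4 members are not shown to be outside the cell cycle, since thinning hides members, and in YAP5SA 55.2% of cells reached 4 members unthinned. Median depths of the same cells and of the others, before thinning, were 5505 and 5133 UMIs in the control, 10396 and 7878.5 in YAP5SA and 6283 and 6081 in the knockout, and the part of that depth gap in the result was not tested. The 50 other mitosis genes, such as Knl1 and Spc24 of the kinetochore, summed to 4010 against 1151 CPM in the control, 4591 against 1738 in YAP5SA and 3140 against 954 in the knockout.

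Within the control epithelium, cells with at least 4 mitosis genes were mostly gland cells. Neck and chief-like cells, which line the glands, had 20.7% of cells with at least 4 members (37 of 179, 15.0 to 27.3) and pit-like surface mucous cells 1.08% (1 of 93, 0.0272 to 5.85), at median depths of 4548 and 3164 UMIs. In the knockout the shares were 13.8% (24 of 174, 9.04 to 19.8) and 3.42% (5 of 146, 1.12 to 7.81). Few YAP5SA cells had either identity, with 3 of 21 neck and chief-like cells (14.3%, 3.05 to 36.3) and 2 of 16 pit-like cells at 4 members or more. Most of its epithelial-like cells passed no finer gate, and of these 24.7% (213 of 863, 21.8 to 27.7) had at least 4 members. Squamous-like cells of YAP5SA gave 16.1% (76 of 473, 12.9 to 19.7), against 20.0% of control ones (3 of 15, 4.33 to 48.1). In the control, ungated epithelial-like cells gave 6.31% (7 of 111, 2.57 to 12.6). Their median depth was 2412 UMIs, against 6659 in the ungated YAP5SA cells. Thinning kept 111 of 198 ungated control cells and 863 of 1017 ungated YAP5SA cells. The YAP5SA share was thus above control beyond counting error in the ungated cells. It was not in the neck and chief-like or squamous-like gates, where 1 of the libraries had few cells. Whether the ungated cells of control and YAP5SA are of like types was not tested.

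Pooled over the gated non-epithelial cells, the mitosis genes of the YAP5SA library stood near control. Single classes lay on both sides, with YAP5SA ratios from 0.693 in pericyte-like to 2.74 in erythroid-like cells. In all gated non-epithelial cells the members summed to 1319, 1259 and 1506 CPM in control, YAP5SA and knockout, ratios of 0.955 (0.943 to 0.967) and 1.14 (1.13 to 1.16). In YAP5SA, 0 of the 40 members were called in either direction, where 8.65% of the 12787 genes tested were called higher and 8.84% lower. In the knockout 11 were called higher and 0 lower, where 19.4% were called higher and 8.72% lower, and the members' median log2 ratio of 0.33 stood beside 0.16 over all genes tested. Cenpf was among the highest, at 22.2 CPM in the control and 40.8 in the knockout, with the condensin gene Smc2 at 21.2 and 37.0 and Top2a at 50.2 and 76.7, while Aurkb was lowest, at 24.5 and 17.9. The summed knockout ratio depended on scaling: it became 0.992 with TMM scaling and 1.01 with scaling by the median gene ratio. Under either, 3 members were then called higher, with no share of all genes computed at those settings. The share of cells with at least 4 members was 12.0%, 13.0% and 13.5% in control, YAP5SA and knockout, a range of overlapping intervals.

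**Figure D4:**
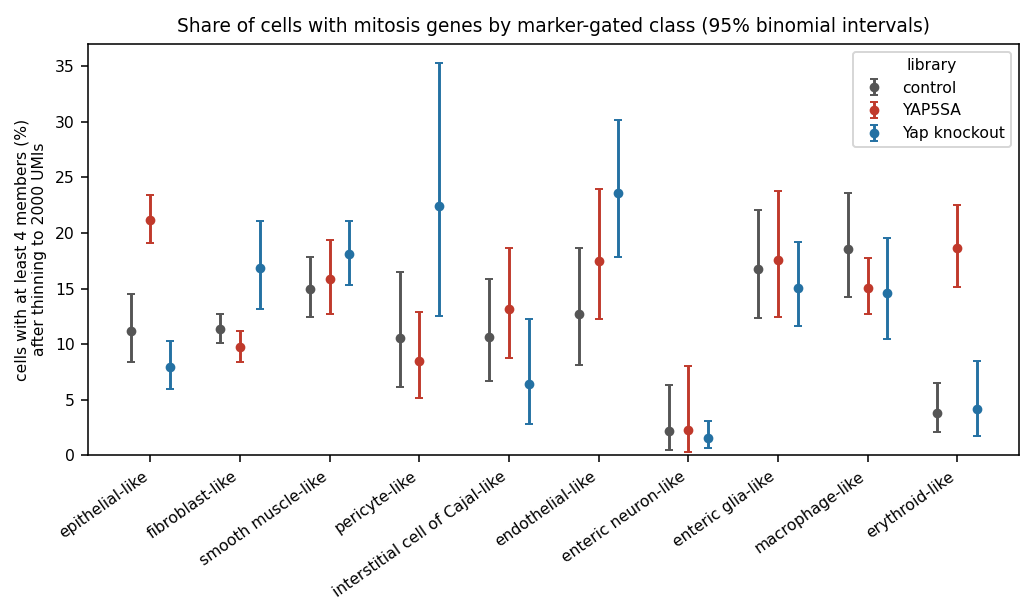
Percent of cells with at least 4 mitosis genes after thinning to 2000 UMIs, by marker-gated class and library, for classes with at least 50 cells in every library; bars are 95% binomial intervals. The YAP5SA interval lies wholly above those of both other libraries in epithelial-like (21.2%) and erythroid-like cells (18.6%). In some other classes its point is highest too, with overlapping intervals. Enteric neuron-like cells are lowest, at 1.52% to 2.30%.

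Single classes differed in direction. Members were called per class only where each library had at least 200 cells of it. Erythroid-like cells, which had been exposed to red-cell lysis during preparation, had 3.85% of cells with at least 4 members in the control (13 of 338), 18.6% in YAP5SA (84 of 451) and 4.19% in the knockout (7 of 167), or 28.2%, 37.1% and 12.1% unthinned, and the members summed to 651, 1785 and 501 CPM. Without erythroid-like cells the non-epithelial ratio of YAP5SA was 0.873 and 3 members were called lower, with no share of all genes computed at that setting. Fibroblast-like cells gave shares of 11.4%, 9.76% and 16.9% and sums of 1356, 1125 and 1579 CPM in the same order. In YAP5SA fibroblast-like cells 7 members were called lower and 0 higher, where 8.03% and 7.14% of all genes were. In knockout fibroblast-like cells 12 were higher and 2 lower (24.0% and 7.81% of all genes). Macrophage-like cells of YAP5SA had 11 members called lower and 0 higher (13.0% and 9.03% of all genes), with sums of 1357 and 998 CPM in control and YAP5SA. In knockout macrophage-like cells 3 were higher and 7 lower (7.74% and 23.0% of all genes). In YAP5SA, smooth muscle-like cells had 0 higher and 1 lower (5.16% and 7.08% of all genes) and enteric glia-like cells 2 higher and 2 lower (12.2% and 13.0%). In the knockout, smooth muscle-like cells had 18 members higher and 0 lower (13.4% and 8.01% of all genes), with sums of 1621 and 2202 CPM in control and knockout, and enteric glia-like cells 21 higher and 0 lower (16.2% and 16.0% of all genes), with sums of 1545 and 2175 CPM. The thinned shares of smooth muscle-like cells (15.0% and 18.1%) and glia-like cells (16.8% and 15.1%) in control and knockout had overlapping intervals.

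The knockout ratios moved with the base composition of the transcripts. GC content was taken from the longest GENCODE transcript of each gene, found for all 40 members, and ranged from 34.8% for Ncapg to 56.0% for Plk1. In knockout epithelial-like cells Pearson's r between GC and the log2 ratio was -0.48 over the 40 members, which share their libraries and depth, and -0.21 over 11174 tested genes. In knockout non-epithelial cells it was -0.67 over the members and -0.17 over 11873 genes. In YAP5SA epithelial-like cells it was -0.03 over the members. Of the 14 members with the highest GC content (47.8% to 56.0%), 0 had a knockout ratio above 1 in epithelial-like cells and 8 were at or past the 1.5-fold limit below control, among them Cdc20, Plk1, Cdca3 and Cdca8. Of the 13 with the lowest (34.8% to 43.0%), 7 were above 1 and 1 was past that limit. In non-epithelial cells 12 of the 13 lowest were above 1, against 6 of the 14 highest. With the trend of all genes over bins of GC taken off, 11 members were called lower in knockout epithelial-like cells and the summed ratio was 0.801. The count called higher in non-epithelial cells went from 11 to 4. The share of all genes called was not computed at that setting. For transcript length, Pearson's r over the members was 0.25 in epithelial-like and 0.51 in non-epithelial knockout cells, and the part of length in the knockout values was not tested.

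**Figure D5:**
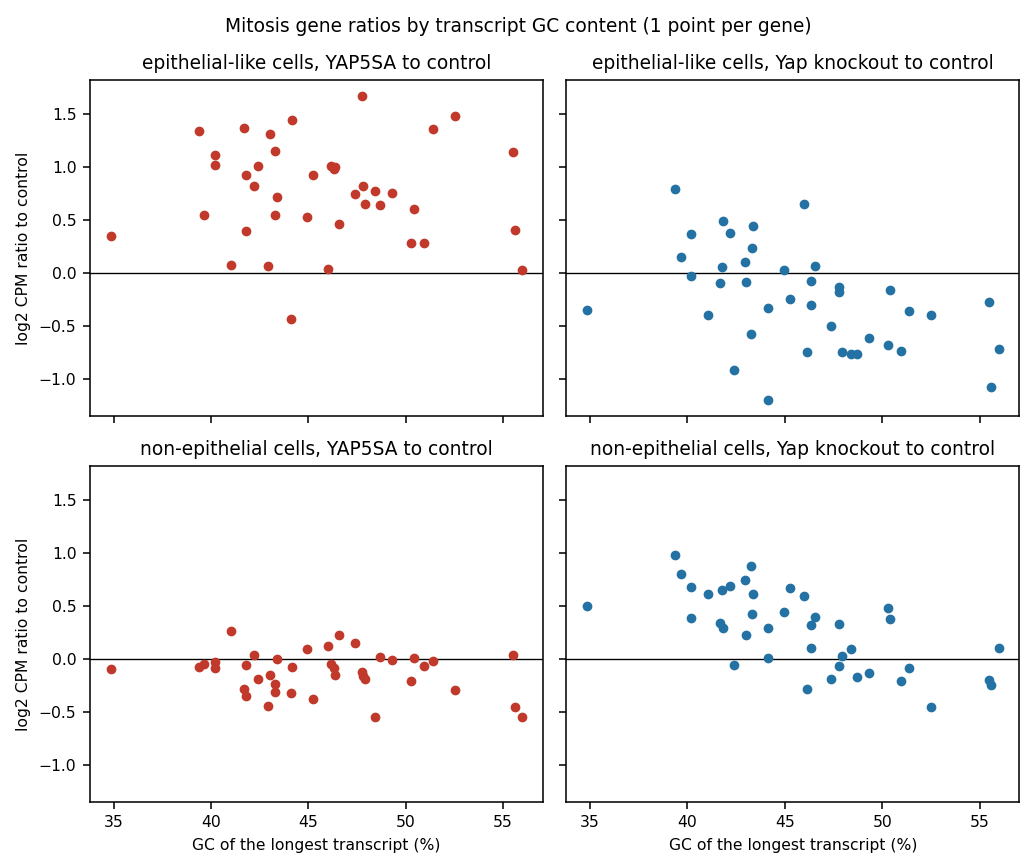
Log2 CPM ratio to control of each mitosis gene against the GC content of its longest transcript, 1 point per gene, for YAP5SA (left) and Yap knockout (right) in epithelial-like (top) and non-epithelial cells (bottom). Knockout points slope down with GC in both rows (r of -0.48 and -0.67), and YAP5SA epithelial points do not (r of -0.03).

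Genes of related lists gave context for the epithelial values, to be read beside the 23.2% of all genes called higher and 18.9% lower in YAP5SA and the 12.2% and 11.9% in the knockout. Of 50 other mitosis genes, 24 were called higher in YAP5SA and 1 lower, with a median log2 ratio of 0.74; Shcbp1 (2.88) and Sgo1 (2.70) were highest, and the phosphatase gene Cdc25b was lowest, with 29.0 CPM in control and 14.9 in YAP5SA cells (0.513, 0.409 to 0.647). In the knockout 3 were higher and 11 lower, with the minus-end motor Kifc1 (0.421) and Cdkn3 (0.422) lowest and Knl1 (1.86) and Gas2l3 (1.75) highest. Of 31 DNA replication genes, 24 were called higher in YAP5SA and 0 lower, led by the ribonucleotide reductase subunit Rrm2, with 13.7 CPM in control, 63.2 in YAP5SA and 8.75 in knockout cells, and the chromatin remodeller Hells (ratio 3.33). In the knockout 0 were higher and 7 lower, with thymidine kinase Tk1 lowest (0.515). Of the 26 regulators of mitosis genes, 11 were called higher in YAP5SA and 0 lower. Tead4, a DNA-binding partner of YAP, had 1.55 CPM in control, 36.3 in YAP5SA and 1.72 in knockout cells (6, 614 and 12 UMIs). It reached the filter of 5 CPM only through its YAP5SA level. Tfdp1, the dimer partner of E2F factors, had a ratio of 2.76.

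Of 14 CDK inhibitors and growth arrest genes, 6 were called higher in YAP5SA and 1 lower, where 23.2% and 18.9% of all genes were. In the knockout 5 were higher and 3 lower, where 12.2% and 11.9% of all genes were. Cdkn2a, which encodes the inhibitor p16 and the p53 activator ARF, had 1 UMI in control, 965 in YAP5SA and 11 in knockout epithelial-like cells, or 0.259, 57.0 and 1.58 CPM. Its YAP5SA ratio was 220, with a counting interval of 39.4 to 8703 that reflects the single control UMI. Cdkn2a reached the filter of 5 CPM only through its YAP5SA level. Cdkn2b, its neighbour in the genome, stood at 11.1, 43.4 and 17.1 CPM. Btg2, an antiproliferative gene, stood at 250, 158 and 420 CPM, and Btg1 at 76.7, 61.6 and 137 CPM. Cdkn2a and Cdkn2b were thus higher, and Btg2 lower, in the same YAP5SA sum in which most mitosis genes were higher.

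The levels of the members followed their common sum across cell classes to unequal degrees. Over 37 library-by-class sums of at least 50 cells, log2 levels of Cdca8 correlated best with that of the summed members (r = 0.94), followed by Top2a and Cdk1 (0.92 each). Among members with a mean of at least 5 CPM, Cdc25c (0.44) and Pttg1 (0.47) followed it least, and both were exceptions in the epithelial comparisons above. The sums share libraries and differ in depth, and members are part of the sum, so these are descriptions. Other genes were ranked too if their mean reached 5 CPM, with mitochondrial, Gm, Rik and unnamed symbols left out. Of these, the 10 most like the list were Ska1 (0.91), Spc24 and Spc25 (0.90 each), Knstrn, Usp1, Shcbp1, Diaph3, Pclaf, Ncapd2 and Kifc1 (0.82).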

How the data were processed

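Single cells of the embryonic hindstomach were profiled with a droplet 3′ kit (DNBelab C Series), 1 library per genotype. The deposited values are raw UMI counts per gene and cell, made with PISA 1.0 per the file headers; STAR and the genome build GRCm39 are named in the submitters' processing notes. The deposited matrices held 7692 control, 9439 YAP5SA and 5739 Yap knockout cells with at least 1000 UMIs each and 48910624, 65843656 and 40857356 UMIs in all. Cells with at least 500 genes and at most 20% mitochondrial UMIs were kept. Scrublet (in scanpy 1.11.5) called 0 doublets, so the 6% of cells with the highest doublet score were removed (413, 511 and 311). Cells were gated by marker scores centred per library at the 25th percentile; the gate settings were chosen after seeing the data. Counts were summed per class and library and given as CPM. Ratios carry exact Poisson intervals, shares exact Clopper-Pearson intervals at 95%, and no test between genotypes was possible with 1 library each. Shares were read after thinning each cell to 2000 UMIs. Genes named are all 40 members and, of the other lists, the highest and lowest ratios past the fold of 1.5; further genes named were chosen after their values were seen. Members and lists were chosen with earlier results of these data known. Alternatives covered scaling, filters, pseudocount, thinning depth, doublets, gates, collagen subtraction and left-out cells; those on GC, erythroid-like cells and thinned mitotic cells were added after seeing the data. Transcript GC came from GENCODE M21 (GRCm38), promoters from RefSeq.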

Additional observations from a re-analysis of the deposited data

Results flagged for a closer look

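The summed ratio of the mitosis genes to control lay on opposite sides of 1 in epithelial-like and non-epithelial cells of the same library. In YAP5SA the ratio to control was 1.74 in epithelial-like cells and 0.955, close to 1, in non-epithelial cells. The latter value pooled unlike classes, with ratios from 0.693 in pericyte-like to 2.74 in erythroid-like cells. In the Yap knockout it was 0.830 in epithelial-like cells and 1.14 in non-epithelial cells. With 1 library per genotype the difference between the classes was not tested. The knockout value in non-epithelial cells depended on scaling and was 0.992 with TMM.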

How the results depend on the processing

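No paired analysis was possible because each genotype was 1 library, and no replicate could be left out. Shares of all genes called were computed at the main settings only. Counts of members called under any other setting, here or above, therefore have no background share to be read against. The share of epithelial-like cells in control, YAP5SA and knockout was 19.5%, 28.0% and 13.0% at 3 members, 4.58%, 12.4% and 4.12% at 6, 2.98%, 9.97% and 2.29% at 1000 UMIs, 23.7%, 36.5% and 17.7% at 4000, and 29.2%, 55.2% and 30.6% unthinned; in non-epithelial cells it was 16.5%, 18.1% and 17.1%, then 8.91%, 8.43% and 9.94%, 7.90%, 6.95% and 8.30%, 20.1%, 23.9% and 21.0%, and 33.0%, 34.4% and 32.7%. The YAP5SA epithelial ratio was 1.88 with TMM, 1.61 with every cell scaled alike and 2.77 after collagen subtraction. Without the cells with at least 4 members it reversed to 0.876, a setting that leaves out 55.2% of YAP5SA and 29.2% of control cells; with those cells chosen after thinning it was 1.19. Members called higher there were 14 at a filter of 20 CPM, 11 at a fold of 2, and 2 and 8 without those cells, with 5 and 3 lower. The knockout epithelial ratio was 0.955 without those cells. Knockout members called higher were 6 with every cell scaled alike, 0 at 20 CPM, a fold of 2, a pseudocount of 5 CPM or the GC trend removed, 2 with no filter, 8 after collagen subtraction, and 3 and 2 without those cells; members called lower were 7 at 20 CPM, 2 at a fold of 2 and 7 with the pseudocount. In non-epithelial cells the YAP5SA ratio was 0.981 with TMM, 0.985 by the median gene ratio and 0.873 without erythroid-like cells, and members called lower were 1 with doublets kept and 3 without erythroid-like cells. The knockout ratio there was 0.992 with TMM, a reversal, 1.01 by the median gene ratio, 1.13 with doublets kept, 1.10 with the GC trend removed and 1.12 without erythroid-like cells; members called higher were 3, 6, 0, 4, 3 and 4 with TMM, 20 CPM, a fold of 2, the pseudocount, the median ratio and GC, and 1 was called lower with TMM or the median ratio. TMM moved the median log2 ratio of all genes there by 0.20. Without the cells with at least 4 members the log2 YAP5SA ratio reversed for Aurkb (-0.78), Birc5 (-0.70), Bub1b (-0.71), Ccna2 (-0.27), Ccnb1 (-0.61), Ccnb2 (-0.38), Cdca8 (-0.80), Ect2 (-0.46), Kif20a (-0.56), Nuf2 (-1.52), Prc1 (-0.58), Top2a (-0.26) and Ube2c (-0.18), and the knockout ratio for Cenpa (0.80) and Kif2c (0.70); after thinning it reversed for Bub1b (-0.089) and Kif20a (-0.14). The cause was not tested.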
